A study of Mus musculus with 38 samples.

Results

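A set of 10 genes that carry a cell from quiescence through the first gap phase (G1) into DNA replication was followed in mouse CD4 T cells. They are the D-type cyclins Ccnd2 and Ccnd3, the kinases Cdk4 and Cdk6, the E-type cyclins Ccne1 and Ccne2, the phosphatase Cdc25a, and the activator transcription factors E2f1, E2f2 and E2f3. The 10 members were taken by name from a count table of 24028 genes in 38 RNA-seq libraries. All 10 passed the filter on low counts that left 13650 genes for testing.

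The cells were naive CD4 T cells, each preparation drawn from the lymph nodes and spleen of 1 mouse, and were sequenced either directly (naive) or after 24 h on plates coated with anti-CD3 (0.5 µg/ml) and anti-CD28 (0.2 µg/ml) in medium with interleukin-2 (50 U/ml). There were 5 genotypes. Mice labelled wt were wild-type. Mice labelled CD28-/- lack the costimulatory receptor CD28. T1792delta/delta mice carry floxed alleles of the miR-17~92 microRNA cluster and a Cre recombinase driven by CD4 sequences (CD4cre). T1792tg/tg mice carry CD4cre and, at Rosa26, a transgene of the cluster behind a floxed stop cassette. Rescue mice combine CD28-/-, CD4cre and that transgene. Each genotype had 4 naive libraries and 4 at 24 h, except rescue with 3 of each. No genotype carried Cre alone, so effects of Cre and of the cluster cannot be told apart. No culture was kept without stimulation, so the change over 24 h includes that of culture and interleukin-2. All naive libraries are from single mice; the labels do not say whether cultures of a group came from separate mice, and p-values measure the spread between these libraries.

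D-type cyclins bind CDK4 and CDK6 and are the part of the cell cycle machinery most directly driven by growth factors and antigen receptors. Their kinases phosphorylate the retinoblastoma protein and its relatives, the pocket proteins, which otherwise hold E2F factors in check. Released E2F factors switch on E-type cyclins, which activate CDK2, and the genes of DNA replication, while CDC25A removes an inhibitory phosphate from CDK2. Resting naive T cells hold only low amounts of parts of this machinery and raise them after antigen receptor and CD28 signals. MicroRNAs of the miR-17~92 cluster repress mRNAs that pair with bases 2 to 8 at their 5' end, the seed, and E2F1 is one of the mRNAs long studied in connection with this cluster.

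Total counts, in units of 1000000, were 19.43 to 24.98 in naive libraries and 22.27 to 28.02 at 24 h. Naive counts of the annotated Mir17 precursor followed the transgene labels: 0.334 ± 0.0969 counts per 1000000 counts (CPM, mean ± SD) in naive wt, 6.55 ± 0.900 in naive T1792tg/tg and 6.88 ± 1.84 in naive rescue. The 4 T1792delta/delta libraries at 24 h had none, with no wt level of that state set beside it here. The host transcript Mir17hg stood at 172 ± 11.8 CPM in T1792delta/delta and 20.7 ± 2.44 CPM in wt cells at 24 h. Cd28 counts do not check the CD28-/- label, since they were 737 ± 135 CPM in naive CD28-/- and 825 ± 86.8 CPM in naive wt libraries. Summed T cell markers (6 of 7 genes present in the table, none at 0) were 2165 to 4757 CPM in all libraries. Summed B cell markers (6 genes) were 121.5 to 503.8 CPM in naive libraries and 20.1 to 83.2 CPM at 24 h, and summed myeloid markers (6 genes) 72.8 to 224.9 and 5.45 to 10.75 CPM. In naive libraries 6 stress genes such as Fos and Hspa1a summed to 1581 to 9085 CPM, against 91.7 to 207.3 CPM at 24 h. Sex was read from the RNA levels of Xist and of Y-linked genes. By this reading all CD28-/- and rescue libraries were from females. So were 3 of 4 wt, 2 of 4 T1792delta/delta and 1 of 4 T1792tg/tg libraries in both states.

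The mature microRNAs of the cluster are shown because 3 of the genotypes change them. They lie on chromosome 14 (RefSeq, GRCm38.p6, plus strand; miR-17-5p at chr14:115043684-115043706). The seed is in capitals.
miR-17-5p: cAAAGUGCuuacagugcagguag
miR-20a-5p: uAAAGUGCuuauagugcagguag
miR-18a-5p: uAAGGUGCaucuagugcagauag
miR-19a-3p: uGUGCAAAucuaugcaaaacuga
miR-19b-3p: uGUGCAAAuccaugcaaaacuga
miR-92a-3p: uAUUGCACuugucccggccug
The first pair share a seed, as do the miR-19 pair. An exact match to bases 2 to 8 of miR-17 and miR-20a (GCACTTT) was found in the longest annotated 3' UTR of 5 of the 10 members, against 11.9% of 20829 genes. Those 3' UTRs are long: the median was 1678 bases for the members and 976 bases for all genes. Over all 4 seed families the members held 12 sites, or 0.418 per kb of 3' UTR, against 0.29 per kb in all genes.

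The miR-17 and miR-20a sites of the members are printed with 9 bases on either side, on the strand of the gene, with the match in capitals (GRCm38).
Ccnd2, chr6:127129331-127129355, minus strand: attagaaaaGCACTTTgaaaatttt
E2f1, chr2:154560203-154560227, minus strand: gctctaactGCACTTTtggtgtcct
E2f1, chr2:154559688-154559712, minus strand: ctccagtctGCACTTTgatttgttt
E2f2, chr4:136194370-136194394, plus strand: agtggggcaGCACTTTttgcttgtt
E2f3, chr13:29908069-29908093, minus strand: aagacaccgGCACTTTaaactctgt
Cdc25a, chr9:109893049-109893073, plus strand: cacaggaagGCACTTTaggcagctt
E2f1 held 2 of them. The sites of E2f3 and Cdc25a are followed by A, the form called 8mer. A miR-18a match (GCACCTT) lay in E2f1 and E2f2, a miR-19 match (TTTGCAC) in Ccnd2 and E2f2, and a miR-92a match (GTGCAAT) in Ccne2 and E2f3. No match to any of these seeds lay in the 3' UTRs of Ccnd3 (915 bases), Ccne1 (531 bases), Cdk4 (899 bases) or Cdk6 (10217 bases).

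Promoters were searched because E2F factors bind the starts of many genes of this pathway, their own among them. The letters TTTCCCGC, TTTCGCGC, TTTGCCGC and TTTGGCGC were sought on both strands from 250 bases before to 50 bases after each RefSeq start. They were present in 3 of 11 promoters of 8 members, or 27.3%, against 2.26% of 32851 promoters. Ccnd2 and Ccne2 had no promoter sequence among those searched, so they were not examined for these letters. The matches, in capitals with up to 10 bases around them, are given on the strand of the gene (GRCm38.p6).
Cdc25a, chr9:109875502-109875529, plus strand: gtgaattccgTTTGGCGCcaactaggaa
E2f3, chr13:29986057-29986084, minus strand: tgaaaagccgGCGGGAAAtctgagtttc
E2f2, chr4:136172303-136172323, plus strand: cggcatatagTTTGGCGCtaa
Distances are from the start that the promoter table uses, and genes can have several. The Cdc25a match begins 67 bases before a start that lies inside the gene's annotated span, and just before the first base of that span (109875518). The E2f3 match, which reads on the opposite strand, begins 11 bases before the start, and the E2f2 match begins at base 40 of the transcribed part. A match describes letters and is not a measured binding site.

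Over 24 h, 9 of the 10 members rose in wt cells and none fell. The median log2 change of the members was 2.59, against -0.06 over all tested genes. Most of the transcriptome moved in this comparison: 41.3% of the 13650 genes were called higher and 43.9% lower by edgeR's quasi-likelihood test with Benjamini-Hochberg adjustment (adjusted p below 0.05). In bulk RNA, fewer cells of a type and less RNA per cell cannot be told apart.

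The D-type cyclins differed from each other. Ccnd2 (cyclin D2) stood at 397.4, 334.7, 336.2 and 378.9 CPM in the naive wt libraries and at 1066, 1036, 1090 and 1057 CPM at 24 h. The groups did not overlap, and the log2 change was 1.55 ± 0.08 (SE; adjusted p = 5.5e-19). Ccnd3 (cyclin D3) was at 247, 222.7, 232.7 and 256.5 CPM in naive wt cells and at 271.3, 268.4, 258.2 and 249.1 CPM at 24 h. These ranges overlapped and the change of 0.13 ± 0.06 was not called (adjusted p = 0.056). It was called without naive wt replicate 4 (adjusted p = 0.026), without 24 h wt replicate 4 (0.038) and with no filter on low counts (0.041).

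Both D-cyclin kinases rose. Cdk4 went from 106.9, 97.35, 96.09 and 86.73 CPM to 647.9, 630.8, 605 and 586.9 CPM, a log2 change of 2.67 ± 0.08 (adjusted p = 1.9e-25). Cdk6 went from 9.70, 7.55, 7.78 and 8.08 CPM to 17.4, 23.6, 21.8 and 17.6 CPM (1.28 ± 0.18, adjusted p = 3.6e-08). Every wt library at 24 h lay above every naive one for both kinases. Per kb of the length column deposited with the counts, Cdk4 was the most abundant member in both states, at 71.9 ± 6.14 CPM per kb in naive and 459 ± 20.1 CPM per kb in stimulated wt cells. Ccnd2 followed at 59.0 ± 5.11 and 173 ± 3.64 CPM per kb. The length given for Cdk6 (2742 bases) is shorter than its annotated 3' UTR alone, so its level per kb is not compared with the others.

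The E-type cyclins were nearly silent in naive cells. Ccne1 (cyclin E1) had 4.21, 5.86, 7.28 and 5.39 CPM in naive wt libraries and 119.6, 117, 104.5 and 94.55 CPM at 24 h, a 19.03-fold rise (4.25 ± 0.17 on the log2 scale, adjusted p = 8.5e-23). Ccne2 (cyclin E2) had 3.23, 4.74, 5.77 and 4.37 CPM in naive and 53.7, 62.3, 56.1 and 48.8 CPM in stimulated libraries (3.60 ± 0.16, adjusted p = 4e-21). Ccne1 was the higher of the pair per kb at 24 h, with 55.7 ± 5.94 against 17.2 ± 1.74 CPM per kb. Cdc25a rose from 30.7, 25.9, 28.7 and 30.9 CPM to 167.5, 174.3, 170.2 and 149.1 CPM (2.51 ± 0.07, adjusted p = 3.7e-26).

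Of the activator E2F genes, E2f1 and E2f3 rose from low levels and E2f2 from a higher one. E2f1 had 5.04, 7.14, 5.94 and 4.37 CPM in naive and 99.7, 100.1, 99.9 and 84.3 CPM in stimulated wt libraries (4.08 ± 0.10, adjusted p = 1.3e-28). E2f3 had 6.95, 8.13, 8.16 and 6.30 CPM in naive libraries and 82.3, 84.0, 85.6 and 81.4 CPM at 24 h (3.49 ± 0.11, adjusted p = 8.6e-26). E2f2 had 40.01, 41.8, 41.5 and 23.6 CPM in naive and 67.8, 67.7, 68.2 and 56.6 CPM in stimulated libraries (0.82 ± 0.13, adjusted p = 7.3e-07). Naive E2f2 was the highest of the 3 factors per kb (7.34 ± 1.75 CPM per kb, against 1.81 ± 0.386 for E2f1 and 1.38 ± 0.170 for E2f3), and at 24 h E2f1 was (31.0 ± 2.52, against 13.01 ± 1.13 for E2f2 and 15.5 ± 0.339 for E2f3).

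**Figure D1:**
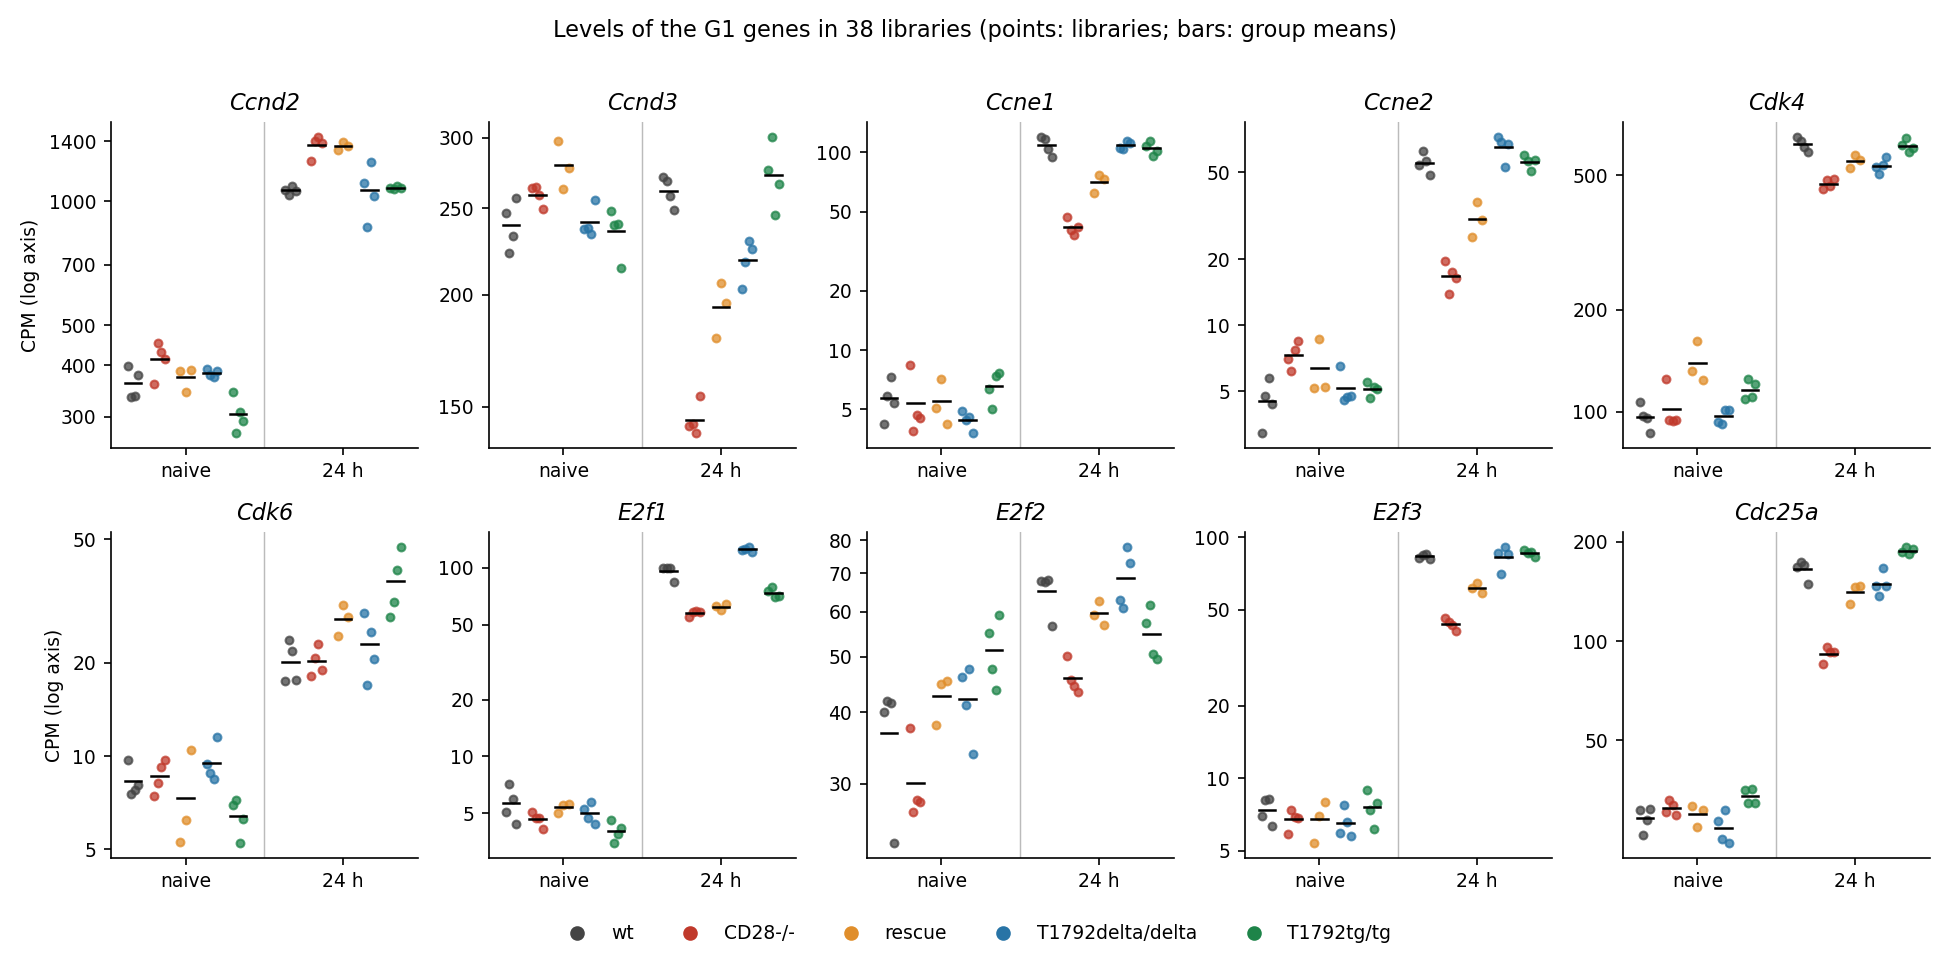
Levels of the 10 genes in all 38 libraries, in CPM on a log axis, by state and genotype; points are libraries and bars are group means. Ccne1, Ccne2, E2f1 and E2f3 are below 10 CPM in every naive library, and in wt cells Ccnd3 has overlapping naive and 24 h levels.

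The rest of the pathway gave a mixed picture in wt cells. Of 9 other G1 cyclins and kinases, 7 rose and 2 fell. Cdk2, the partner of the E-type cyclins, rose by 1.71 ± 0.10 on the log2 scale (53.4 ± 9.72 to 175 ± 2.06 CPM), whereas Ccnd1 (cyclin D1) fell from 5.31 ± 0.581 to 0.131 ± 0.0892 CPM. Of 7 other E2F and DP factors 6 rose and none fell, with Tfdp1, the dimer partner of the activator E2Fs, at 38.2 ± 2.54 CPM before and 436 ± 11.4 CPM after. E2f8, a repressor of the family that is itself an E2F target, rose by 4.61 ± 0.33. Among the pocket proteins Rb1 fell by 0.84 on the log2 scale and Rbl2 by 1.95, and Rbl1 rose by 0.42 ± 0.08.

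Of 7 CDK inhibitor genes 6 were tested, of which 4 fell and 2 rose. Cdkn1b, which encodes p27, a brake on CDK2, dropped from 469 ± 44.9 to 19.5 ± 1.499 CPM. Cdkn1a (p21) rose from 8.45 ± 2.16 to 63.5 ± 6.14 CPM, and Cdkn2c, an inhibitor of CDK4 and CDK6, from 5.00 ± 1.28 to 10.9 ± 1.71 CPM. Of 5 genes of G1 protein turnover 4 rose and 1 fell, with Skp2, which targets p27 for degradation, up by 2.83 ± 0.14. All 16 E2F target genes of DNA replication and nucleotide synthesis rose, with a median log2 change of 3.57, and so did all 9 genes of mitosis (median 4.52). Of 9 upstream growth inputs 2 rose and 5 fell, Myc rising from 148 ± 12.1 to 496 ± 9.59 CPM.

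Stimulation changed all 10 members in CD28-/-, T1792delta/delta and rescue cells (9 higher and Ccnd3 lower in each) and 9 in T1792tg/tg cells, all higher. The background was 39.7% of genes higher and 41.2% lower in CD28-/-, 41.4% and 43.7% in T1792delta/delta, 41% and 44.1% in T1792tg/tg, and 38.8% and 40.8% in rescue cells. The member not called in T1792tg/tg cells was E2f2 (0.09 ± 0.13, adjusted p = 0.52), with 55.1, 47.6, 43.8 and 59.2 CPM in naive and 57.2, 61.5, 50.6 and 49.6 CPM in stimulated libraries. Ccnd3 changed by -0.84 ± 0.06 in CD28-/-, -0.53 ± 0.07 in rescue, -0.14 ± 0.06 in T1792delta/delta (adjusted p = 0.038) and 0.21 ± 0.06 in T1792tg/tg cells (adjusted p = 0.0024). The T1792delta/delta call was lost without naive T1792delta/delta replicate 4 (adjusted p = 0.12), without its 24 h replicate 1 (0.14) or 2 (0.063) and with no filter on low counts (0.11). The T1792tg/tg call was lost with the stricter filter of a mean of 5 CPM (0.26) and with the compared groups alone (0.05).

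**Figure D2:**
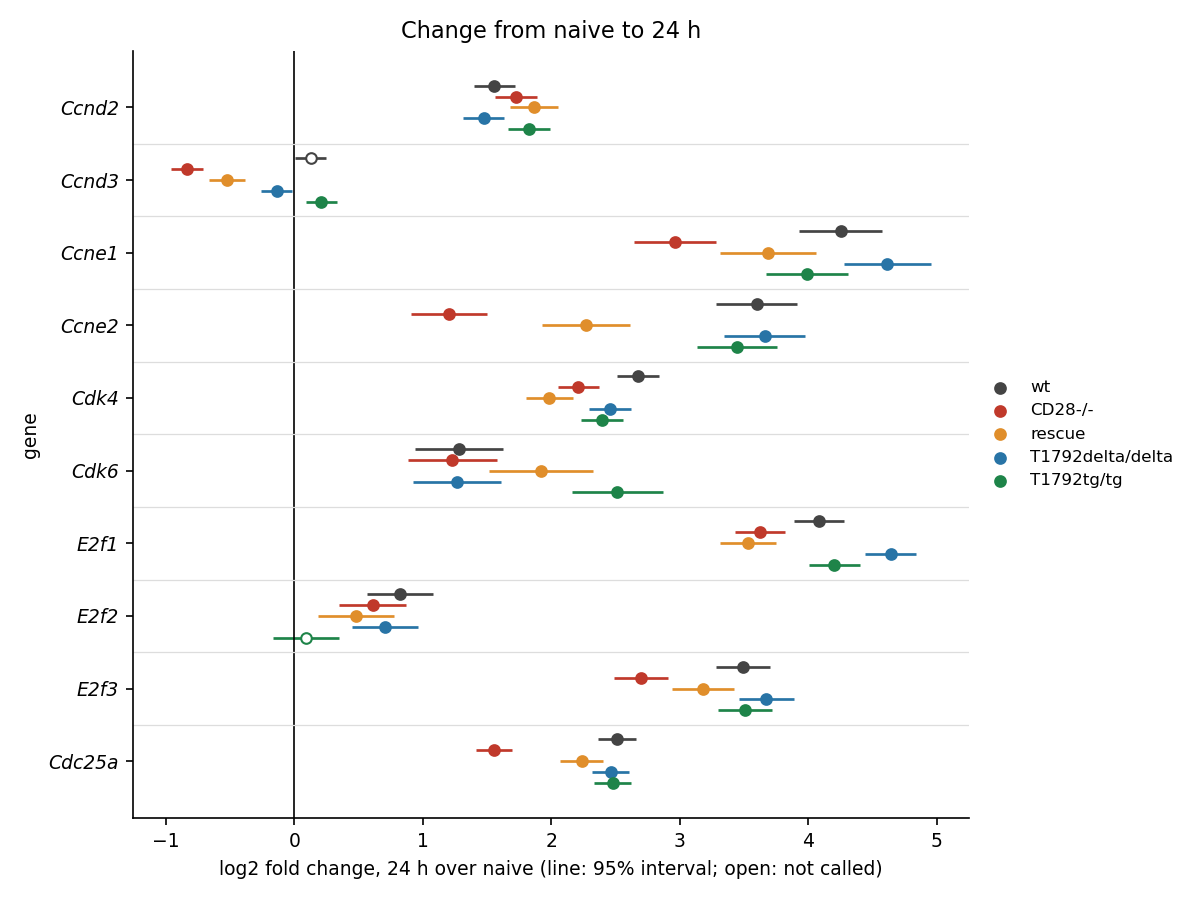
Change of each gene from naive to 24 h in each genotype, as a log2 fold change with its 95% interval; open symbols were not called. The E-type cyclins, E2f3 and Cdc25a rose least in CD28-/- cells, and Cdk6 rose by 2.51 in T1792tg/tg against 1.28 in wt cells.

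Stimulated CD28-/- cells had lower RNA levels of most members than stimulated wt cells. The difference reached 8 members lower and 1 higher at 24 h, with a median log2 difference of -0.79 against -0.03 over all tested genes. In this comparison 23.7% of all genes were called higher and 27.8% lower.

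The E-type cyclins were furthest apart. Ccne2 stood at 19.7, 13.9, 17.5 and 16.5 CPM in the CD28-/- libraries, where wt libraries had 48.8 to 62.3 CPM (-1.71 ± 0.14, adjusted p = 3.6e-12). Ccne1 was at 47.4, 40.6, 38.04 and 41.8 CPM, below the wt range of 94.6 to 119.6 CPM (-1.38 ± 0.14, adjusted p = 3.8e-10). Neither gene's ranges overlapped.

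Among the E2F genes, E2f3 was lower by 0.93 on the log2 scale (-0.93 ± 0.09, adjusted p = 2.7e-10), with 46.2, 44.6, 43.2 and 40.8 CPM against 81.4 to 85.6 CPM in wt. E2f1 had 55.0, 58.4, 59.0 and 58.1 CPM against 84.3 to 100.1 CPM (-0.74 ± 0.08, adjusted p = 2.3e-09). E2f2 had 50.1, 45.5, 44.5 and 43.3 CPM against 56.6 to 68.2 CPM (-0.51 ± 0.13, adjusted p = 0.0015). Cdc25a had 85.2, 96.0, 92.7 and 92.8 CPM against 149.1 to 174.3 CPM (-0.85 ± 0.07, adjusted p = 2.6e-12). In each of these 4 genes every CD28-/- library was below every wt library. The share of all genes without overlap in this comparison was not computed.

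The D-cyclin arm was divided. Ccnd3 was at 142.6, 143.3, 140.2 and 154.1 CPM in CD28-/- cells and at 249.1 to 271.3 CPM in wt cells (-0.85 ± 0.06, adjusted p = 2.1e-13). Cdk4 was at 453.8, 482.6, 464.2 and 486.9 CPM, below the wt range of 586.9 to 647.9 CPM (-0.39 ± 0.08, adjusted p = 9.3e-05). Ccnd2 went the other way, with 1255, 1402, 1431 and 1382 CPM against 1036 to 1090 CPM (0.36 ± 0.08, adjusted p = 0.00024). Cdk6 had 18.2, 20.8, 23.0 and 18.9 CPM, within the wt range of 17.4 to 23.6 CPM (0.01 ± 0.17, 95% interval -0.32 to 0.33).

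The change over 24 h itself differed from that of wt cells for 7 members, in the negative direction for each, where 20.8% of all genes differed in the positive and 22.4% in the negative direction. For 6 of them this was a smaller rise in CD28-/- cells; Ccnd3 fell in CD28-/- cells and was not called in wt cells. The differences in log2 change were -2.40 ± 0.22 for Ccne2, -1.29 ± 0.23 for Ccne1, -0.96 ± 0.09 for Ccnd3, -0.96 ± 0.10 for Cdc25a, -0.79 ± 0.15 for E2f3, -0.46 ± 0.11 for Cdk4 and -0.46 ± 0.14 for E2f1 (adjusted p from 1.1e-10 to 0.0061). Ccnd2 (0.17 ± 0.11), Cdk6 (-0.05 ± 0.25) and E2f2 (-0.22 ± 0.19) were not called.

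Other genes of the pathway were also lower in stimulated CD28-/- cells. The E2F targets were lower in 12 of 16 cases and higher in none, among them Tyms (-1.32 ± 0.16) and Rrm2 (-1.80 ± 0.23), enzymes of nucleotide synthesis. All 9 mitosis genes were lower (median -1.57), with Aurkb, a mitotic kinase, at -1.57 ± 0.16. Of the other G1 cyclins and kinases 5 of 9 were lower and 1 higher, including Cdk2 (134 ± 5.01 against 175 ± 2.06 CPM). Of the other E2F and DP factors 5 of 7 were lower and 1 higher, with Tfdp1 at 273 ± 8.34 against 436 ± 11.4 CPM and E2f8 at 22.3 ± 3.13 against 67.2 ± 12.6 CPM.

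Restraining factors were split. Cdkn1b was higher, at 49.7 ± 3.68 against 19.5 ± 1.499 CPM (1.35 ± 0.15, adjusted p = 1.7e-09), and so was the pocket protein gene Rbl2, at 60.9 ± 3.38 against 29.1 ± 1.40 CPM (1.07 ± 0.08, adjusted p = 7.7e-13). Rb1 (0.07 ± 0.10) and Rbl1 (0.00 ± 0.08) were not called. Cdkn1a was lower, at 16.2 ± 2.78 against 63.5 ± 6.14 CPM. Of the growth inputs 4 were higher and 2 lower, with Mxd4, a MYC antagonist, up by 2.76 ± 0.16 and Myc down by 0.46 on the log2 scale (-0.46 ± 0.09). Skp2 was lower by 1.17 on the log2 scale (-1.17 ± 0.13).

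Marker genes moved in the same comparison. Of 6 T cell markers 5 were higher in CD28-/- cells (summed level 3115 to 3626 CPM against 2475 to 2916 CPM in wt). All 5 regulatory T cell markers were lower (632.5 to 670.2 against 819 to 848.1 CPM), with Foxp3 at 5.97 ± 1.16 against 9.42 ± 0.880 CPM. Of 6 B cell markers 2 were higher (56.3 to 83.2 against 26.97 to 69.3 CPM), as were 2 of 6 myeloid markers (6.27 to 10.2 against 5.45 to 7.96 CPM). Of 5 NK and CD8 cell markers 4 were lower (13.6 to 15.79 against 17.15 to 23.81 CPM), and of 7 memory and effector markers 3 were lower and 1 higher (231.3 to 265.3 against 308.3 to 384.7 CPM). No marker was at 0 throughout a group. Their part in the result was not tested.

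**Figure D3:**
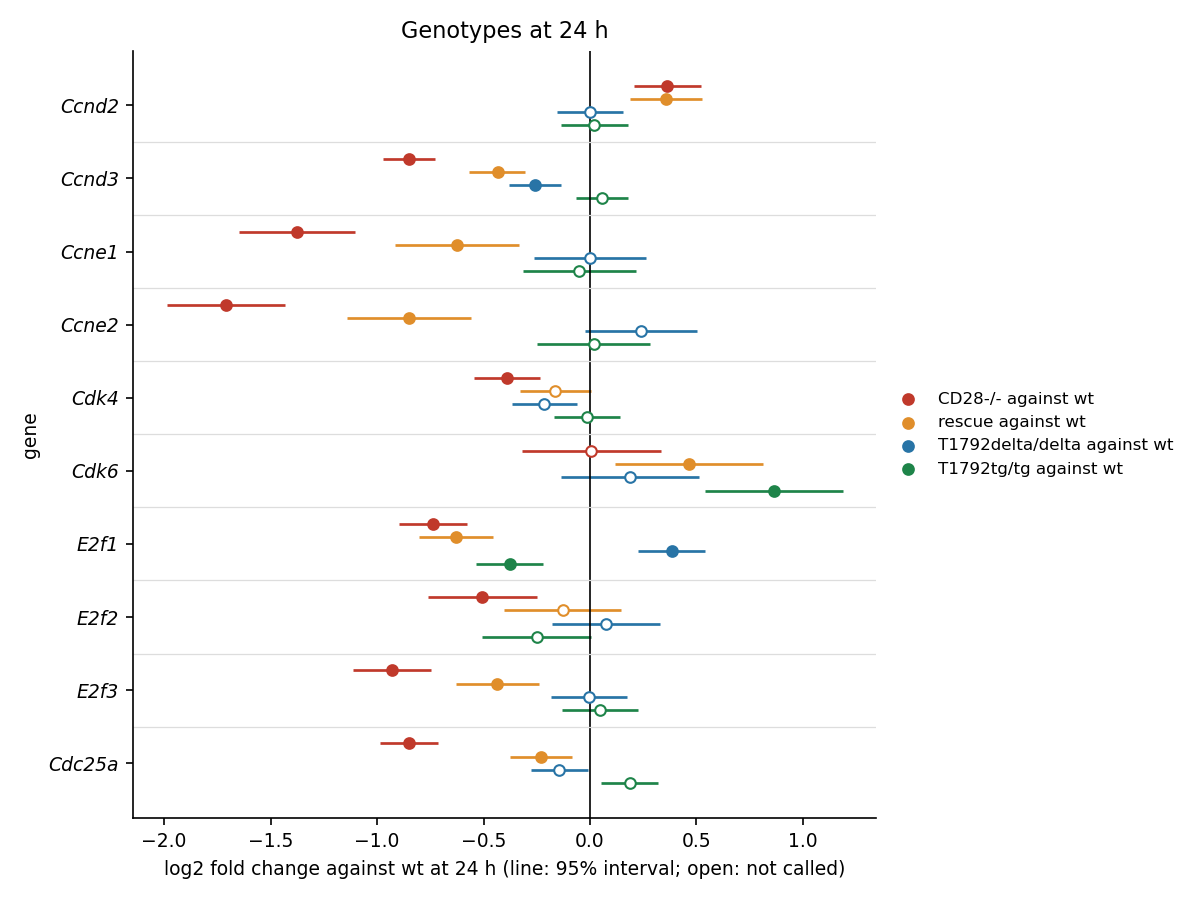
Difference of each genotype from wt cells at 24 h, as a log2 fold change with its 95% interval; open symbols were not called, and the 4 comparisons share the wt libraries. For every member called lower in CD28-/- cells the rescue value lies between the CD28-/- value and 0. Of these, Cdk4 and E2f2 were not called in rescue against wt cells. E2f1 lies on opposite sides of 0 in T1792delta/delta and T1792tg/tg cells, and Cdk6 is furthest right in T1792tg/tg cells.

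Adding the transgene to CD28-/- cells was compared next, rescue against CD28-/- at 24 h (3 against 4 libraries). Of the members 5 were higher and none lower, with a median log2 difference of 0.44 against 0.01 over all genes, where 9.52% of genes were called higher and 8.86% lower. This comparison shares the CD28-/- libraries with the one above.

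Ccne2 was at 25.2, 36.6 and 30.2 CPM in rescue and 13.9 to 19.7 CPM in CD28-/- libraries (0.86 ± 0.15, adjusted p = 6.8e-05). Ccne1 was at 62.0, 76.8 and 73.3 CPM against 38.04 to 47.4 CPM (0.75 ± 0.15, adjusted p = 0.00032). Cdc25a was at 129.4, 146 and 147.2 CPM against 85.2 to 96.0 CPM (0.62 ± 0.07, adjusted p = 1.4e-07). The rescue libraries lay above all CD28-/- libraries for these 3 genes.

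E2f3 was at 61.8, 64.3 and 58.8 CPM against 40.8 to 46.2 CPM (0.50 ± 0.10, adjusted p = 0.0004). Ccnd3 was at 178.9, 206.3 and 195.8 CPM against 140.2 to 154.1 CPM (0.42 ± 0.07, adjusted p = 2e-05). E2f1, with 62.5, 59.5 and 64.2 CPM against 55.0 to 59.0 CPM, was not called (0.11 ± 0.09, 95% interval -0.06 to 0.28), and neither was Ccnd2, with 1331, 1389 and 1365 CPM (-0.01 ± 0.09, -0.18 to 0.16). Cdk4 (0.23 ± 0.09, adjusted p = 0.06), Cdk6 (0.46 ± 0.18, 0.068) and E2f2 (0.38 ± 0.14, 0.056) were not called either. The libraries of these 3 genes and of E2f1 did not overlap between the groups, but the share of all genes without overlap was not computed. DESeq2 called Cdk4, Cdk6 and E2f2, which gave 8 members, as did a fit of the compared groups alone.

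Set against wt cells at 24 h, rescue cells had 6 members lower and 2 higher, where 17.4% of all genes were higher and 17.7% lower. Lower were Ccne2 (-0.85 ± 0.15), E2f1 (-0.63 ± 0.09), Ccne1 (-0.62 ± 0.15), E2f3 (-0.44 ± 0.10), Ccnd3 (-0.43 ± 0.07) and Cdc25a (-0.23 ± 0.07, adjusted p = 0.015). The Cdc25a call was lost without 24 h rescue replicate 1 (adjusted p = 0.12). Higher were Ccnd2 (0.36 ± 0.09) and Cdk6 (0.46 ± 0.18, adjusted p = 0.039), the latter not called without 24 h rescue replicate 2 (0.15) or 3 (0.09) or without 24 h wt replicate 1 (0.11) or 4 (0.1). For Ccne1, Ccne2, E2f3, Ccnd3, Cdc25a, Cdk4 and E2f1 the rescue libraries lay above every CD28-/- and below every wt library. Of these, Cdk4 was called against neither group and E2f1 was not called against CD28-/- cells. The share of all genes placed in this way was not computed.

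The response over 24 h also differed between rescue and CD28-/- cells for 5 members, in the positive direction for each, where 6.96% of all genes differed in the positive and 5.84% in the negative direction. For 4 of them this was a larger rise in rescue cells, and for Ccnd3 a smaller fall. The differences in log2 change were 1.07 ± 0.23 for Ccne2 (adjusted p = 0.002), 0.68 ± 0.11 for Cdc25a (7.1e-05), 0.73 ± 0.25 for Ccne1 (0.046), 0.49 ± 0.16 for E2f3 (0.039) and 0.31 ± 0.10 for Ccnd3 (0.027). Those of Ccne1, E2f3 and Ccnd3 were lost in 12, 11 and 6 of 23 alternatives, and 2 members were left without 24 h rescue replicate 2. A fit with the replicate number as a block within genotype, which pairs naive and 24 h libraries by number, also left 2 members. Without naive rescue replicate 1 or 2, or without 24 h CD28-/- replicate 3 or 4 or 24 h rescue replicate 3, 3 members were left.

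Other genes of the pathway between rescue and CD28-/- cells at 24 h included 6 of 16 E2F targets higher and none lower, with Cdc6, a replication licensing factor, at 0.64 ± 0.17. Of 9 mitosis genes 6 were higher and none lower. Skp2 was higher by 0.995 ± 0.13 (adjusted p = 1e-06). Cdkn1b was lower, at 31.99 ± 2.65 against 49.7 ± 3.68 CPM, and Rbl2 was lower, at 33.6 ± 3.81 against 60.9 ± 3.38 CPM. Tfdp1 (0.32 ± 0.08) and Myc (0.33 ± 0.10) were higher.

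Markers also moved between rescue and CD28-/- cells at 24 h. Of 5 regulatory T cell markers 3 were higher (Il2ra, which activated T cells also express, Ikzf2 and Lrrc32) and Foxp3 was lower, with summed levels of 1009 to 1036 against 632.5 to 670.2 CPM. Of 7 memory and effector markers 4 were higher and 1 lower (375.3 to 467.7 against 231.3 to 265.3 CPM). The T cell markers Cd3e, Cd3d, Cd3g and Lck, 4 of 6, were lower (2678 to 3052 against 3115 to 3626 CPM for all 6), as was 1 of 6 myeloid markers. Of the B cell markers and of the NK and CD8 cell markers, edgeR called 0 in this comparison, and 0 of either had an unadjusted p below 0.05. The part of these markers in the result was not tested.

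In mice with CD28, loss or gain of the cluster came with few called members at 24 h. In T1792delta/delta against wt cells 1 member was higher and 1 lower, where 7.77% of all genes were higher and 8.47% lower. In T1792tg/tg against wt cells 1 was higher and 1 lower, where 6.1% were higher and 6.45% lower. Median log2 differences of the members were 0.00 and 0.02.

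E2f1 was the member called in both comparisons, in opposite directions. The T1792delta/delta libraries had 123.8, 126.5, 128.7 and 121.9 CPM, the wt libraries 99.7, 100.1, 99.9 and 84.3 CPM, and the T1792tg/tg libraries 75.8, 78.9, 70.04 and 71.2 CPM. The 3 groups did not overlap. The log2 difference from wt was 0.38 ± 0.08 in T1792delta/delta (adjusted p = 0.001) and -0.38 ± 0.08 in T1792tg/tg cells (adjusted p = 0.0016). Both calls held in all 15 alternatives. E2f1 is the member with 2 miR-17 and miR-20a sites, printed above, and 1 miR-18a site. E2f2 also held 3 sites over all seed families and was not called in either comparison. The part of the sites in these differences was not tested.

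The other members with a miR-17 and miR-20a site were not called in either comparison. In T1792delta/delta against wt cells their differences were 0.00 ± 0.08 for Ccnd2, 0.08 ± 0.13 for E2f2, 0.00 ± 0.09 for E2f3 and -0.14 ± 0.07 for Cdc25a. In T1792tg/tg against wt cells they were 0.02 ± 0.08, -0.25 ± 0.13, 0.05 ± 0.09 and 0.19 ± 0.07. For Cdc25a the T1792tg/tg libraries (186.2, 192.8, 183.2 and 190.5 CPM) all lay above the wt ones (149.1 to 174.3 CPM), with adjusted p = 0.067. That difference was called by DESeq2 (0.034), with the filter of a mean of 5 CPM (0.048) and with the compared groups alone (0.018).

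Cdk6 had the largest difference of any member between T1792tg/tg and wt cells. The T1792tg/tg libraries had 28, 31.3, 39.8 and 47.1 CPM, all above the wt libraries with 17.4, 23.6, 21.8 and 17.6 CPM (0.86 ± 0.17, adjusted p = 0.00046). In T1792delta/delta cells Cdk6 was at 29.0, 16.9, 25.2 and 20.5 CPM, which overlapped wt (0.19 ± 0.17, 95% interval -0.14 to 0.51). The change over 24 h was larger in T1792tg/tg than in wt cells by 1.23 ± 0.25 (adjusted p = 0.00089).

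Ccnd3 was the member lower in T1792delta/delta cells, with 203, 217.6, 230 and 225.3 CPM against 249.1 to 271.3 CPM in wt (-0.26 ± 0.06, adjusted p = 0.0039). T1792tg/tg cells had 276.3, 300.4, 245.8 and 266 CPM, which overlapped wt (0.06 ± 0.06). Cdk4 in T1792delta/delta cells had 527.6, 503.5, 535 and 564.5 CPM, all below the wt libraries, but was not called (-0.21 ± 0.08, adjusted p = 0.058). It was called by DESeq2 (0.049), with the compared groups alone (0.023) and without 24 h T1792delta/delta replicate 4 (0.048). The E-type cyclins were not called in either comparison. Ccne1 had 104.7 to 113.9 CPM in T1792delta/delta and 95.6 to 114.7 CPM in T1792tg/tg cells, and Ccne2 53.0 to 72.4 and 50.7 to 59.8 CPM.

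Markers moved in both of these comparisons. Summed regulatory T cell markers were 562.3 to 623 CPM in T1792delta/delta (2 of 5 lower, Il2ra and Lrrc32) and 1065 to 1133 CPM in T1792tg/tg cells (2 higher, Il2ra and Ikzf2), against 819 to 848.1 CPM in wt cells. Most of each sum was Il2ra, which activated T cells also express (387.2 CPM on average in T1792delta/delta, 914.1 in T1792tg/tg and 640.8 in wt cells). Foxp3 was not called in either comparison, at 9.357 CPM in T1792delta/delta and 6.475 CPM in T1792tg/tg against 9.422 CPM in wt cells. Memory and effector markers summed to 241 to 328.1 CPM in T1792delta/delta (3 of 7 lower) and 538.9 to 596.9 CPM in T1792tg/tg cells (5 higher, Cd44 among them), against 308.3 to 384.7 CPM in wt cells. Of 6 T cell markers 3 were lower in T1792tg/tg cells (Cd3e, Cd3d and Cd3g) and 1 in T1792delta/delta cells (Cd3g). The cytotoxic cell gene Gzma, 1 of 5 NK and CD8 cell markers, was higher in both. The part of these markers in the E2f1, Cdk6 and Ccnd3 results was not tested.

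**Figure D4:**
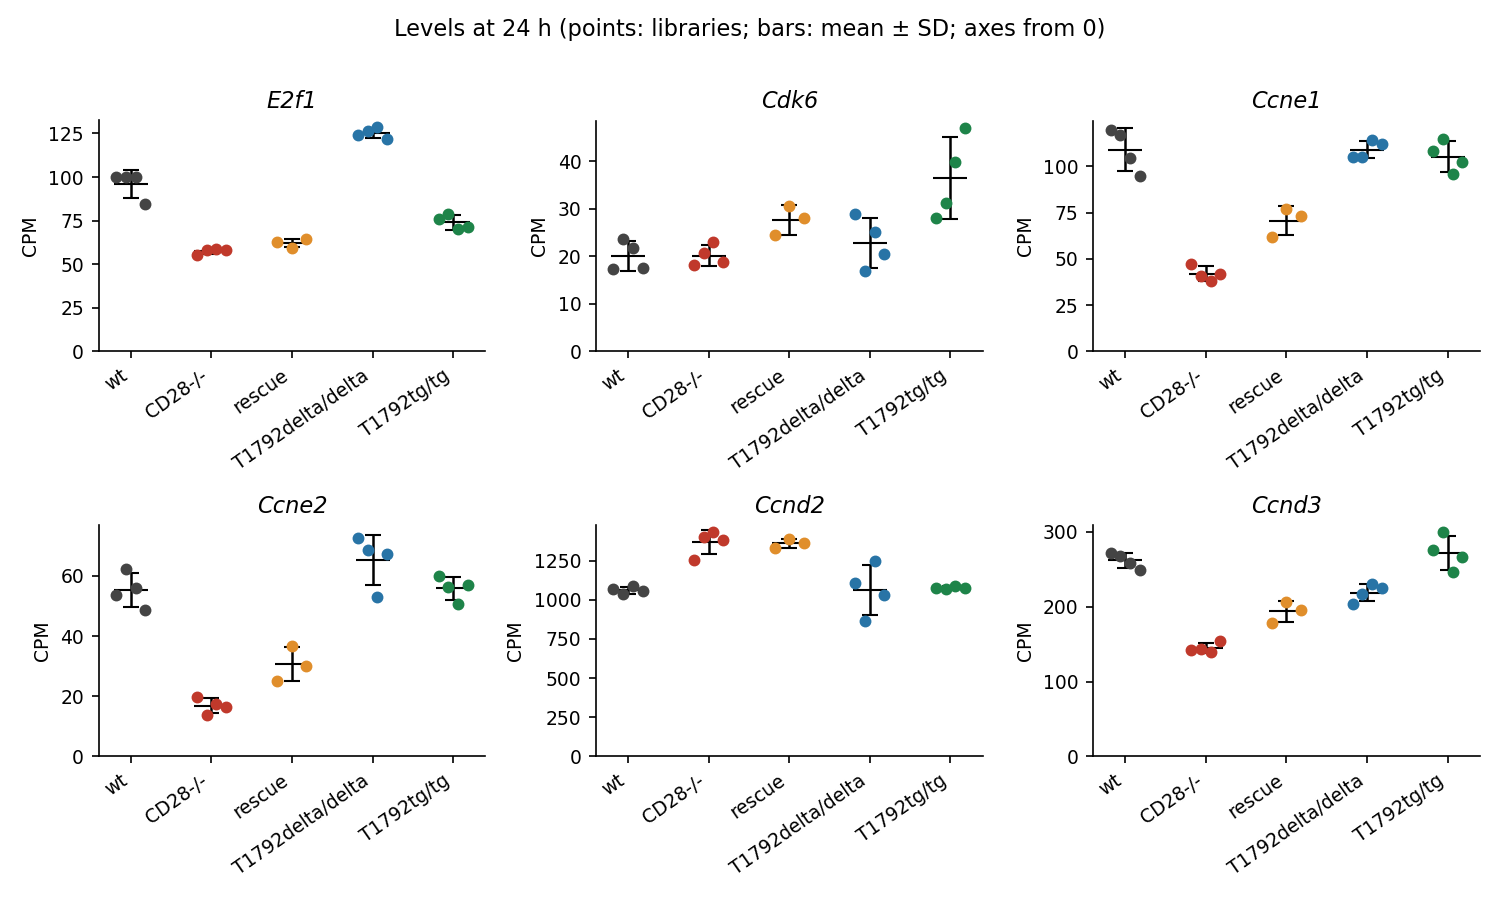
Levels of 6 members at 24 h in CPM on axes from 0; points are libraries and bars are mean ± SD. E2f1 is ordered T1792delta/delta, wt, T1792tg/tg, rescue and CD28-/- with no overlap between neighbours, Cdk6 is highest in T1792tg/tg cells, and Ccnd2 is highest in CD28-/- and rescue cells.

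The difference of responses gave 1 member with a larger change in T1792delta/delta than in wt cells, E2f1 (0.56 ± 0.14, adjusted p = 0.011), where 3.15% of all genes had a larger and 2.95% a smaller change. Between T1792tg/tg and wt cells 1 member had a larger change (Cdk6, above) and 1 a smaller one, E2f2 (-0.73 ± 0.19, adjusted p = 0.0064), where 8.59% of genes were higher and 7.41% lower.

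Of the pathway lists at 24 h, E2F targets had 1 of 16 higher in T1792delta/delta cells (Mcm3, a subunit of the replicative helicase, 0.26 ± 0.06) and 2 of 16 lower in T1792tg/tg cells (Mcm3, -0.25 ± 0.06, and Cdt1, which loads it, -0.29 ± 0.08). Of the 9 mitosis genes 0 were called in either by edgeR, with 0 in T1792delta/delta and 2 in T1792tg/tg cells at an unadjusted p below 0.05. The pocket protein gene Rbl2 was at 41.5 ± 2.91 CPM in T1792delta/delta, 29.1 ± 1.40 CPM in wt and 20.8 ± 0.639 CPM in T1792tg/tg cells (0.51 ± 0.08, adjusted p = 3.7e-05, and -0.48 ± 0.09, adjusted p = 0.00015). Rbl1 was lower in T1792tg/tg cells (-0.25 ± 0.08, adjusted p = 0.03), and so was Cdkn2c, at 6.62 ± 0.603 against 10.9 ± 1.71 CPM. Of the 6 CDK inhibitor genes tested, edgeR called 0 in T1792delta/delta cells, where 0 had an unadjusted p below 0.05. Of the other E2F and DP factors 2 were higher and 1 lower in T1792delta/delta cells, with E2f7, a repressor of the family, at 0.58 ± 0.14, and 1 was lower in T1792tg/tg cells. The other G1 cyclins and kinases had 1 higher and 2 lower in T1792delta/delta and 1 lower in T1792tg/tg cells.

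Naive genotypes differed less. In CD28-/- against wt cells 1 member was higher and none lower, where 7.42% of all genes were higher and 7.34% lower. This was Ccne2, at 6.99, 6.19, 7.72 and 8.50 CPM against 3.23, 4.74, 5.77 and 4.37 CPM (0.69 ± 0.17, adjusted p = 0.0053). Naive counts of Ccne2 in wt libraries were 66 to 138 reads, so its levels rest on few reads. Without naive CD28-/- replicate 1 the members called rose to 3 (Ccnd2 and E2f2 added), and without naive wt replicate 4 also to 3 (E2f1 and E2f2 added). In this comparison 4 of 5 regulatory T cell markers were lower and 1 higher (summed 140.8 to 165.1 CPM against 232.5 to 278.8 CPM in wt; Foxp3 4.63 ± 0.832 against 21.7 ± 1.64 CPM), and all 6 stress genes were lower (1869 to 2206 against 2534 to 9085 CPM). No marker was at 0 throughout, and their part was not tested.

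In naive T1792delta/delta against wt cells 0 members were called by edgeR (background 2.76% higher and 2.42% lower) and 0 by DESeq2, and 0 had an unadjusted p below 0.05. In naive T1792tg/tg against wt cells 3 members were higher and 2 lower, where 10.5% of all genes were higher and 12.6% lower. E2f1 was at 4.59, 3.47, 3.87 and 4.19 CPM against 4.37 to 7.14 CPM (-0.50 ± 0.11, adjusted p = 0.0011), E2f2 at 55.1, 47.6, 43.8 and 59.2 CPM against 23.6 to 41.8 CPM (0.48 ± 0.13, 0.0074). Ccnd2 was at 343.5, 273.9, 306.9 and 292.5 CPM against 334.7 to 397.4 CPM (-0.25 ± 0.08, 0.021). Cdk4 (0.26 ± 0.08, 0.015) and Cdc25a (0.22 ± 0.07, 0.026) were slightly higher.

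These naive calls were sensitive to the libraries. A fit of the compared groups alone left 1 of the 5, Cdk4. Without naive T1792tg/tg replicate 2 or naive wt replicate 4, Ccnd2 and Cdk4 were lost and 3 members were left. Stress genes summed to 3563 to 7161 CPM in T1792tg/tg and 2534 to 9085 CPM in wt libraries (1 of 6 higher, 1 lower), and regulatory T cell markers to 266.4 to 407.8 against 232.5 to 278.8 CPM (2 of 5 higher). Their part was not tested.

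In naive rescue against CD28-/- cells 2 members were higher and none lower, where 7.84% of all genes were higher and 8.92% lower. Cdk4 was at 131.9, 161.8 and 124.4 CPM against 125, 94.7, 93.7 and 94.4 CPM (0.45 ± 0.09, adjusted p = 0.00033). E2f2 was at 37.99, 44.7 and 45.4 CPM against 37.6, 26.7, 28.1 and 27.9 CPM (0.51 ± 0.14, adjusted p = 0.013). In both genes naive CD28-/- replicate 1 stood above the other libraries of its group. In this comparison 2 of 5 regulatory T cell markers were higher (Ikzf2 and Il2ra; summed 185.3 to 212 against 140.8 to 165.1 CPM), 2 of 7 memory and effector markers higher and 1 lower, and 2 of 6 stress genes higher (Fos and Fosb) and 1 lower (Jun; summed 1581 to 2535 against 1869 to 2206 CPM). Cd5 among the T cell and Itgam among the myeloid markers were lower. Their part was not tested. The E2f2 call was lost without naive CD28-/- replicate 2 (adjusted p = 0.05) or naive rescue replicate 2 (0.056) or 3 (0.053).

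Levels over the 10 groups of genotype and state fell into an order for each member, read here by whether the libraries of neighbouring groups overlap. E2f1 libraries did not overlap between neighbouring genotypes at 24 h, from T1792delta/delta (125 ± 3.001 CPM) down to CD28-/- (57.6 ± 1.78 CPM), while its naive groups (4.03 to 5.62 CPM on average) overlapped their neighbours. Rescue and CD28-/- libraries were only just apart (lowest rescue 59.45 and highest CD28-/- 59.01 CPM), and that difference was not called. Ccne1, Ccne2 and E2f3 had T1792delta/delta, wt and T1792tg/tg cells together at the top at 24 h, then rescue, then CD28-/- cells, then all naive groups. Cdc25a was highest in T1792tg/tg cells (188 ± 4.31 CPM), followed by wt, T1792delta/delta and rescue cells, and then by CD28-/- cells. Its T1792delta/delta libraries overlapped those of wt and of rescue, but wt and rescue libraries did not overlap each other. Cdk4 had wt and T1792tg/tg cells on top, then rescue with T1792delta/delta, then CD28-/- cells. Ccnd2 placed CD28-/- with rescue cells above the other 3 genotypes. Ccnd3 and E2f2 mixed the states: neighbours overlapped throughout, except that the lowest Ccnd3 group, CD28-/- at 24 h, stood apart from rescue. Cdk6 neighbours overlapped within each state.

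Across the 19 libraries at 24 h most members followed each other. Pearson's r of log2 CPM was 0.972 between Ccne1 and Ccne2, 0.968 between Ccne1 and E2f3, 0.959 between Ccnd3 and Cdc25a and 0.937 between Ccnd3 and Cdk4, while Ccnd2 ran against Ccne2 (-0.843). These values describe 5 genotype means as much as single libraries. Among the other 13649 tested genes, those most like each member were Cdc6 for Ccne1 (r = 0.988), Pnpt1 for Ccne2 (0.985), Dck for E2f1 (0.986), Hirip3 for E2f3 (0.987), Kpnb1 for Cdc25a (0.984), Desi1 for Ccnd3 (0.984), Prpf31 for Cdk4 (0.975), Ddi2 for Cdk6 (0.958), Usp4 for Ccnd2 (0.929) and Spata24 for E2f2 (0.922). The next in rank were Cdk1 and Trip13 for Ccne1, Arhgap11a and Shcbp1 for Ccne2, 4930579G24Rik and Rpa1 for E2f1, and Lrp8 and Rangap1 for E2f3. For Cdc25a they were Pa2g4 and Ccl3, for Ccnd3 Snu13 and Ahsa1, for Cdk4 Cinp and Hras, for Cdk6 Ammecr1 and Zfp106, for Ccnd2 Extl3 and Poldip3, and for E2f2 Dscc1 and Cenpm.

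Some members share their locus with a gene on the other strand, and the sources used here do not state whether counting used strand. Ccnd3 overlaps Bysl, which stood at 167 ± 4.86 CPM in wt and 128 ± 9.14 CPM in CD28-/- cells at 24 h. Cdk4 overlaps Tspan31 (60.3 ± 2.57 CPM in wt and 41.9 ± 2.54 CPM in CD28-/- cells at 24 h; 32.2 ± 3.47 against 16.7 ± 1.84 CPM in naive T1792tg/tg and wt cells). Tspan31 was also higher in rescue than in CD28-/- cells, at 27.5 ± 0.619 against 12.9 ± 1.87 CPM in naive cells. At 24 h it was at 56.5 ± 3.34 CPM in rescue cells. Ccne2 overlaps Ints8, which was not called between CD28-/- and wt cells at 24 h (-0.06, adjusted p = 0.6). Ccnd2 overlaps 9330179D12Rik, at 1.25 CPM or below on average in every group. Reads of such pairs cannot be told apart without strand.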

How the data were processed

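RNA-seq libraries of mouse CD4 T cells were counted per gene by the authors, who deposited whole-number counts without normalization, beside a length for each gene (38 libraries). Per the labels' protocols, libraries were stranded TruSeq with single-end reads of 76 nt. The submitters' processing notes name mm10, edgeR 3.24.3 under R 3.5, the aligner STAR 2.5.2a and, for read quality, FastQC 0.11.5. How reads were assigned to genes, with which annotation and whether by strand, is not stated there or in the labels. The length column, also deposited, served only for levels per kb.

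Groups came from the genotype and activation labels. Symbols and coordinates came from a RefSeq GRCm38.p6 table, which matched 23968 of 24028 identifiers; the others hold 0.0749% of counts. In edgeR 4.0.16 (R 4.3.3), filterByExpr kept 13650 genes, library sizes were summed over them and scaled by TMM, and a quasi-likelihood fit with 1 coefficient per group over all libraries gave 18 two-sided contrasts with Benjamini-Hochberg adjustment over the tested genes, called below 0.05. SE is the log2 fold change divided by the root of its F statistic, and 95% intervals are 1.96 SE. The fit was tested on simulated data.

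The members, lists and tests were chosen with earlier results of these data known. Named genes were the 10 members, 11 preset pathway genes, up to 3 genes of a list with the smallest p in a comparison and the 3 genes most correlated with each member at 24 h. Genes that overlap a member were named by position, outside that rule. Seed matches were sought in the longest GENCODE 3' UTR per gene of at least 30 bases, motifs in RefSeq promoters. Alternatives were RLE size factors, DESeq2 1.42.0, no filter, a mean of 5 CPM, compared groups only, the replicate number as a block, a term for sex and each library left out. No pair of libraries of a group agreed within sampling noise.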

Additional observations from a re-analysis of the deposited data

Results flagged for a closer look

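Among 80 sets of 4 libraries (a member in a group), 6 held a library farther from the others than Dixon's 95% limit allows, where chance gives about 1 in 20. Naive wt replicate 4 had 23.64 CPM of E2f2 against 40.01 to 41.79 CPM in the other libraries of its group, and wt replicate 4 at 24 h had 56.63 CPM of E2f2 against 67.66 to 68.17 CPM and 84.33 CPM of E2f1 against 99.74 to 100.1 CPM. Naive CD28-/- replicate 1 had 125.0 CPM of Cdk4 against 93.67 to 94.73 CPM and 37.6 CPM of E2f2 against 26.74 to 28.11 CPM. Naive T1792delta/delta replicate 1 had 6.547 CPM of Ccne2 against 4.578 to 4.777 CPM.

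The change from naive to 24 h differed between genotypes in 15 of 40 tests of the difference (edgeR interaction contrast, adjusted p below 0.05). The comparisons share libraries. Of all tested genes, 20.8% differed in the positive and 22.4% in the negative direction between CD28-/- and wt cells, and 6.96% and 5.84% between rescue and CD28-/- cells. These shares were 3.15% and 2.95% for T1792delta/delta and 8.59% and 7.41% for T1792tg/tg against wt cells. Between CD28-/- and wt cells the log2 changes differed by -0.963 for Ccnd3, -1.291 for Ccne1, -2.397 for Ccne2, -0.463 for Cdk4, -0.458 for E2f1, -0.792 for E2f3 and -0.956 for Cdc25a. Between T1792delta/delta and wt cells E2f1 differed by 0.558. Between T1792tg/tg and wt cells Cdk6 differed by 1.231 and E2f2 by -0.733. Between rescue and CD28-/- cells the differences were 0.308 for Ccnd3, 0.727 for Ccne1, 1.068 for Ccne2, 0.485 for E2f3 and 0.682 for Cdc25a.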

How the results depend on the processing

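No called member changed sign under any alternative, and the number of members called moved by at most 1.5 times in the comparisons not named below, reaching 3 from 2 in T1792delta/delta against wt at 24 h (DESeq2, the compared groups only, or without 24 h T1792delta/delta replicate 4), T1792tg/tg against wt at 24 h (DESeq2, a mean of 5 CPM or the compared groups only) and the response difference of T1792tg/tg and wt cells (without naive T1792tg/tg replicate 1 or naive wt replicate 1). In naive CD28-/- against wt cells 1 member was called, 1 to 3 with a library left out (3 without naive CD28-/- replicate 1 or naive wt replicate 4) and 3 without both naive libraries farthest from their group (naive CD28-/- replicate 1 and naive rescue replicate 2), a choice added after seeing the data. In naive T1792tg/tg against wt cells 5 were called, 3 to 4 with a library left out and 1 with the compared groups only. In naive rescue against CD28-/- cells 2 were called, 1 to 2 with a library left out and 1 with the compared groups only. In rescue against CD28-/- cells at 24 h 5 were called, and 8 with DESeq2 or the compared groups only. The response difference of T1792delta/delta and wt cells had 1, and 2 with DESeq2, a mean of 5 CPM, the compared groups only or without naive wt replicate 4 (1 to 2 with a library left out). That of rescue and CD28-/- cells had 5, and 2 with the compared groups only, 2 with the replicate block within genotype and 2 to 5 with a library left out. The cause of these moves was not tested.

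The labels do not say whether a replicate number marks the same mouse in both states, and the main fit did not pair by it. Over 19 pairs of a naive and a 24 h library with the same number, r ran from 0.025 to 0.342, above 0.1 in 14. Of the naive libraries 16 correlated best with their own number, among 4 libraries at 24 h per genotype (3 in rescue). The main tests of the response ignore any such pairing. With the replicate block over all groups 177 of 180 member results kept direction and side of the threshold and 1 lost its call; within genotype 86 of 90 did and 4 lost theirs. With a library left out, 1577 of 1690 did, 41 lost and 12 gained a call, and the other 60 changed sign with no call in either fit. The same direction and side held for 177 of 180 with RLE size factors, 173 with DESeq2, 163 with the compared groups only, 175 with no filter, 172 with a mean of 5 CPM and 172 with a term for sex. Of 200 levels 9 moved by at least 1 SD with raw or RLE-scaled totals. For miR-17 and miR-20a, 8mer sites lay in 2 members (3.53% of genes) and 6mer sites in 7 (37.2%).

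Genes called over the whole table moved more. They fell from 2015 to 956 in naive CD28-/- against wt, from 3158 to 1913 in naive T1792tg/tg against wt and from 2288 to 802 in naive rescue against CD28-/- cells with the compared groups only. At 24 h that fit raised them from 1713 to 2631 in T1792tg/tg against wt and from 2510 to 3851 in rescue against CD28-/- cells. With a library left out they fell in naive CD28-/- against wt cells to 1170 (without CD28-/- replicate 4), 1307 or 1331 (wt replicate 2 or 3), and in naive T1792delta/delta against wt cells from 708 to 439 (T1792delta/delta replicate 3) or 469 (wt replicate 3). At 24 h they fell in T1792delta/delta against wt cells from 2216 to 1388 (T1792delta/delta replicate 1), in T1792tg/tg against wt cells to 962 or 1092 (T1792tg/tg replicate 4 or 3) and 1092 (wt replicate 1), and in rescue against CD28-/- cells to 1300 or 1595 (rescue replicate 2 or 3). The response differences fell from 833 to 443 (24 h T1792delta/delta replicate 1) or 467 (naive wt replicate 3) for T1792delta/delta with wt cells, and from 1747 to 1000 or 1144 (24 h rescue replicate 2 or 3) for rescue with CD28-/- cells. Naive E2f1, E2f3, Ccne1 and Ccne2 rest on few reads, which limits what naive comparisons can show.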
